A study of Drosophila melanogaster with 3 samples.

Results

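The genes described here encode the translation initiation and elongation factors and the aminoacyl-tRNA synthetases of Drosophila melanogaster. They were chosen by symbol alone from the Ensembl gene models on the dm6 build: protein-coding genes whose symbol starts with eIF or eEF, or is a three-letter amino acid code followed by RS, with or without the suffix -m that marks the mitochondrial enzyme. The rule gave 84 of the 13968 protein-coding genes on the 7 assembled chromosome arms. Of the 84, 44 are eIF genes, 8 are eEF genes, 17 are cytoplasmic synthetase genes and 15 are mitochondrial synthetase genes. No peak value enters this rule, although the set was picked for description with earlier results of these data known.

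Binding of lozenge (lz), a transcription factor of the Runx family, was mapped by ChIP-seq with an antibody against GFP in a transgenic fly line that carries lz with GFP at its C-terminus. The chromatin came from whole animals at the white prepupa stage, with males and females pooled, and the 3 biological replicates form a single group. No control sample was analysed here, and per the deposited file lists the peaks were called against 1 control alignment. Because lz is known to act in restricted cell types, such as crystal cells and eye cells, while the chromatin is that of the whole animal, a peak cannot be assigned to any cell type, and the tagged protein is made from a transgene.

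Initiation factors place the small ribosomal subunit with the initiator tRNA at a start codon, elongation factors deliver charged tRNAs and move the ribosome along the message, and each synthetase joins an amino acid to its tRNA. Most of these genes are transcribed in nearly all cells, and such housekeeping promoters in flies often hold the DRE, the site of the factor DREF, or the related core bound by the insulator protein BEAF-32. Translation of mitochondrial messages uses synthetases that are encoded in the nucleus. Genes with the suffix -m are called mitochondrial here and those without it cytoplasmic, by symbol alone. Some amino acids, such as glycine and lysine, have only a gene without the suffix in this set.

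A summit is the base at which the authors placed the top of a peak, and a promoter summit is a summit within 500 bp of the first base of any annotated transcript of the gene (TSS). In the authors' thresholded set of 8048 summits, 35 of the 84 genes had a promoter summit (41.7%, 95% Wilson interval 31.7 to 52.3%), while 26.9% of all protein-coding genes had one. The highest lay at eIF6, SerRS, eIF4EHP, eEF1gamma and eIF1. Promoter summits were found at 5 of 8 elongation factor genes and 10 of 17 cytoplasmic synthetase genes, against 4 of 15 mitochondrial synthetase genes and 0 of 5 eIF2B genes. The interval covers the counting of genes only, and neither genes nor summits are independent replicates.

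Windows of 101 bp centred on 5 of the promoter summits are given first, 4 of them because they hold the housekeeping motifs in question and the weaker eIF1 summit for contrast. They were read from the RefSeq Release 6 genome (dm6) 5′ to 3′ on the strand of the gene. Capitals mark TATCGATA (DRE) and CGATA outside a DRE (BEAF-32 core, reading TATCG on the other strand).
eIF1 summit of rank 720, chr3L:3222978-3223078, plus strand: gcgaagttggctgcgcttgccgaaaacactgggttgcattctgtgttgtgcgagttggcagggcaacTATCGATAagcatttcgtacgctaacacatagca
eIF1 summit of rank 3613, chr3L:3223184-3223284, plus strand: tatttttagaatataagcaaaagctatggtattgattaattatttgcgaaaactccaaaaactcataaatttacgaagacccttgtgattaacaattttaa
eEF1gamma summit of rank 488, chr3R:29220094-29220194, plus strand: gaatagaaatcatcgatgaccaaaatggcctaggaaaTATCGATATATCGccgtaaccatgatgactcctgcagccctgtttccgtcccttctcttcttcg
eIF3a summit of rank 2917, chr3R:4433901-4434001, minus strand: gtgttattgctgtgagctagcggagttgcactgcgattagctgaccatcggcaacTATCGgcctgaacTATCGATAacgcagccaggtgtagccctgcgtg
eEF2 summit of rank 1533, chr2L:21682088-21682188, minus strand: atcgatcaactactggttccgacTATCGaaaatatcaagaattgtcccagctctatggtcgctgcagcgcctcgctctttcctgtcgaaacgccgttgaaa
The eIF1 summits lie between eIF1 and RpL28, which are transcribed away from each other. The stronger one, 313 bp upstream of eIF1 and 68 bp from the RpL28 TSS, holds a DRE and has 50.5% G and C. The weaker one, 107 bp upstream of eIF1, holds neither a DRE nor a BEAF-32 core and has 24.8% G and C.

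A second set shows summits rich in A and T and without a DRE or a BEAF-32 core, a composition that most cytoplasmic synthetase summits shared. The windows were read in the same way and hold no capitals.
SerRS summit of rank 270, chr2L:3037344-3037444, minus strand: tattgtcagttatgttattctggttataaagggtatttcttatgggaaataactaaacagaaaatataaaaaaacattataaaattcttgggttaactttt
eIF4EHP summit of rank 370, chr3R:24109113-24109213, minus strand: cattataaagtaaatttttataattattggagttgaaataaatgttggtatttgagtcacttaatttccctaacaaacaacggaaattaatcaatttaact
ThrRS summit of rank 1238, chr2L:12103510-12103610, plus strand: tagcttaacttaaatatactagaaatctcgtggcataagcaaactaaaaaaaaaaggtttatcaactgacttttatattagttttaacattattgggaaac
AsnRS summit of rank 1968, chr2L:19132001-19132101, minus strand: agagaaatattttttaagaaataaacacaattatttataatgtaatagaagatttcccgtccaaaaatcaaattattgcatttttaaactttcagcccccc
G and C made up 22.8% of the window at SerRS and at eIF4EHP, and 25.7% at ThrRS and at AsnRS. The median over the top summits of the 10 cytoplasmic synthetase genes was 27.2% (range 20.8 to 41.6%), with 6 of 10 under 30%. The 21 translation factor genes had a median of 43.6% (range 20.8 to 60.4%), with 5 of 21 under 30%. The 4 mitochondrial synthetase genes had a median of 43.6%, with 1 of 4 under 30%. Over the top summits of all 35 genes the median was 40.6%, with 12 of 35 under 30% (34.3%). Over all 3209 promoter summits, not only the top one of each gene, the median was 34.7%, and 33.1% were under 30%.

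A further set shows the transcription start itself. The TCT initiator, a pyrimidine-rich start motif known from ribosomal protein genes, was searched as TCTTTC, with T or C allowed at either end, on the sense strand with the C that follows its first letter within 10 bp of an annotated TSS. Capitals mark the match in windows of 41 bp.
eEF2 start, chr2L:21682096-21682136, minus strand: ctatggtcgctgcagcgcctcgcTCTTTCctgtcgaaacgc
eIF4A start, chr2L:5981744-5981784, plus strand: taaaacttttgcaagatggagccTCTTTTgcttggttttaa
ThrRS start, chr2L:12103731-12103771, plus strand: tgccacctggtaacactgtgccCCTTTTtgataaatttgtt
A match stood at 11 of the 84 genes (13.1%), at 3.63% of all protein-coding genes and at 73.1% of the 93 cytoplasmic ribosomal protein genes. The 11 comprised 5 of 16 eIF3 genes, 3 of 8 elongation factor genes, 2 of 17 cytoplasmic synthetase genes and eIF4A. Promoter summits were present at 5 of the 11 (45.5%: eIF3m, eIF4A, eEF2, eEF5 and ThrRS) and at 30 of the 73 without a match (41.1%). Over all genes the shares were 42.4% with and 26.4% without a match.

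Each replicate was also read alone, with its 8048 strongest calls. Replicate 1 had a call within 500 bp of a TSS at 38 of the 84 genes (29.5% of all protein-coding genes), replicate 2 at 28 (23.4% of all) and replicate 3 at 34 (26.7% of all). The mean share was 39.7% ± 5.99 for the 84 genes and 26.5% ± 3.04 for all genes (SD, n = 3), and in each replicate the 84 genes had the higher share. Promoter summits matched within 100 bp by a top call of all 3 replicates were present at 21 of the 84 genes, against 18.1% of all genes. Counting all 30000 pooled calls, 50 of the 84 had one at the promoter, against 48.5% of all genes. The pooled list is labelled as peaks and background, so a pooled call outside the thresholded set may be background. Ribosomal protein genes, the other large class of translation genes, had replicate means of 78.5% ± 7.05 for cytoplasmic and 49.8% ± 9.12 for mitochondrial ones (SD, n = 3). The replicate range of the 84 genes lay below that of the cytoplasmic ribosomal protein genes and overlapped that of the mitochondrial ones.

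**Figure D1:**
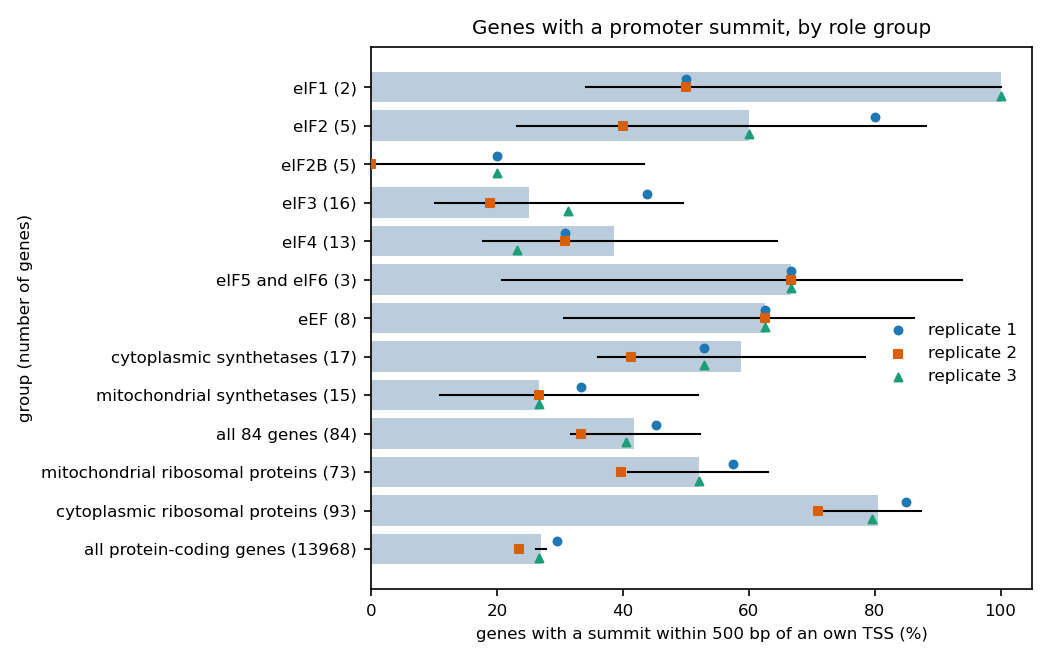
Share of genes with a summit within 500 bp of an own TSS (percent) by role group, with the number of genes in parentheses. Bars give the thresholded set with 95% Wilson intervals as lines, and points give the 3 replicates. The share of all 84 genes lies above that of all protein-coding genes and below that of the cytoplasmic ribosomal protein genes, and the intervals of the small role groups are wide.

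The ranks of the strongest promoters were similar between replicates. The eIF6 gene (chr2R:23849246-23850301, minus strand) encodes a factor that binds the large ribosomal subunit and keeps it apart from the small one. Its summit, 106 bp upstream of the TSS, ranked 42 of 8048 in the thresholded set and 44, 35 and 47 in replicates 1, 2 and 3. It was the single one of the 84 genes with a promoter summit among the 100 strongest. Ranks of 1000 or better were held by 7 of the 84 genes (8.33%), against 4.88% of all genes. The median rank of the top promoter summit was 2743 over the 35 genes and 3183 over all 3763 genes with one. Signal is scaled differently in each deposited list, so only ranks within a list are given.

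**Figure D2:**
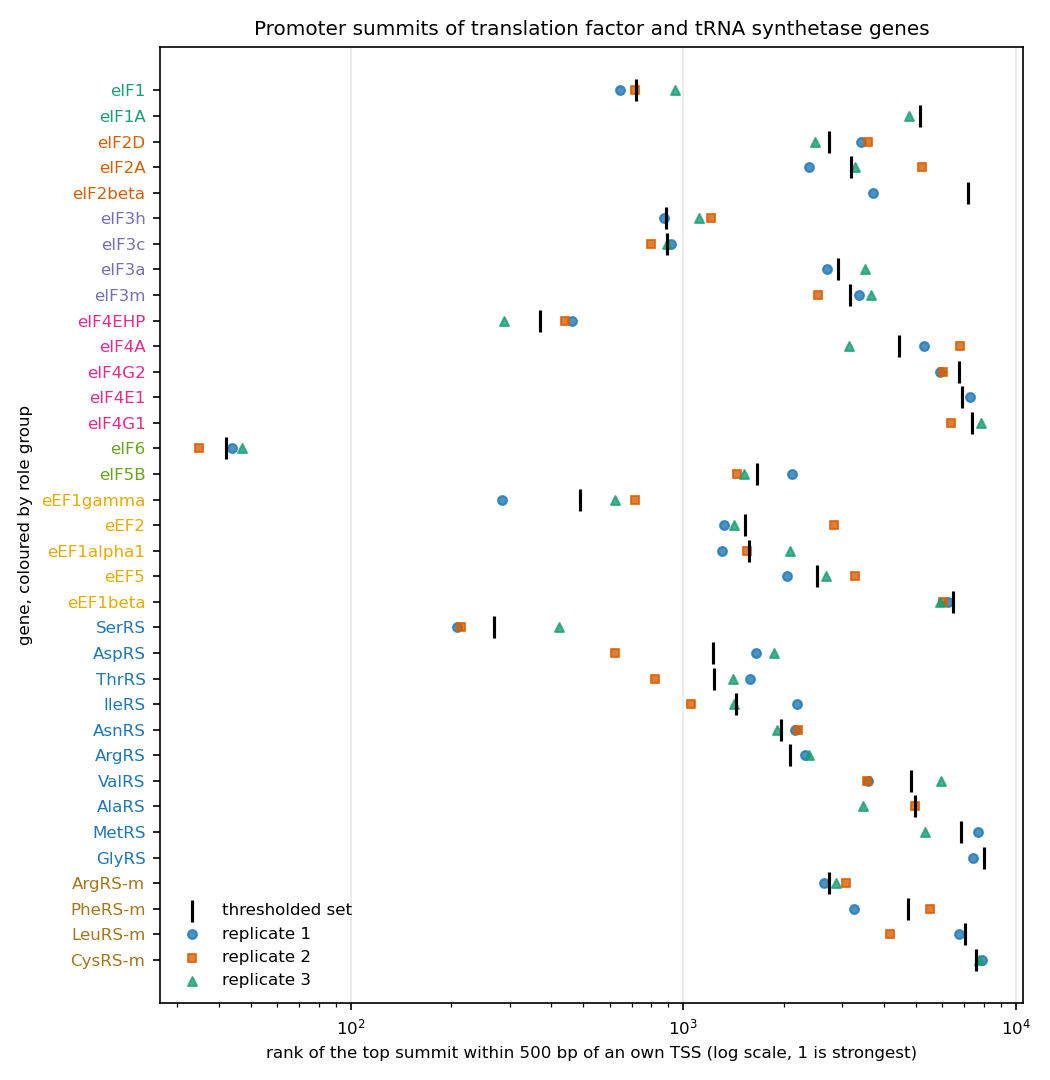
Rank of the top summit within 500 bp of an own TSS (log scale, 1 is strongest) for the 35 genes with a thresholded promoter summit, grouped and coloured by role. Black ticks give the thresholded set and points the top 8048 calls of each replicate, so a missing point means no such call. The points of eIF6 lie between 35 and 47, while eIF1A, eIF2beta, eIF4E1 and GlyRS have a point from 1 replicate each.

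Among the factors that act at the small subunit, eIF1 and eIF1A, which promote scanning and start codon choice, both had a promoter summit. The eIF1 promoter ranked 720 in the thresholded set and 645, 717 and 943 in the replicates. The eIF1A summit ranked 5130 and was a top call of replicate 3 alone (rank 4775). Requiring a match in both remaining replicates left eIF1 alone, whichever replicate was left out.

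The trimer eIF2 brings the initiator tRNA to the small subunit, and of its subunit genes eIF2beta alone had a thresholded promoter summit (rank 7173, a top call of replicate 1 alone at rank 3720). The eIF2gamma promoter was called in replicate 1 (rank 5701) and replicate 3 (rank 4617) but had no pooled call. The eIF2alpha promoter had a pooled call of rank 22812. The genes of eIF2A and eIF2D, separate proteins that can also bring initiator tRNA to the ribosome, were called in every replicate. Their ranks were 2387, 5202 and 3289 for eIF2A and 3419, 3581 and 2492 for eIF2D. So the promoter summits of this role group that recurred in all replicates belonged to the 2 genes outside the trimer.

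None of the 5 genes of eIF2B, the nucleotide exchange factor that recharges eIF2, had a thresholded promoter summit (0%, Wilson upper bound 43.4%). The second strongest of all 8048 summits lay 674 bp upstream of eIF2Bbeta, on the X, and 45 bp from the TSS of Ugalt. The eIF2Bdelta gene had a summit of rank 2639 at 753 bp upstream, 300 bp from the TSS of CG30414. These were the nearest misses of the 500 bp limit, and with a limit of 1000 bp they were the 2 genes gained.

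The complex eIF3 is the large scaffold of initiation, and 4 of its 16 genes had a promoter summit (25.0%, Wilson interval 10.2 to 49.5%), a share near the 26.9% of all genes. The eIF3h gene (chr2L:5051193-5053094, minus strand) had summits 285 bp downstream of its TSS, in an intron (rank 889), and 28 bp downstream, in an exon (rank 1998). The eIF3c promoter ranked 895 in the thresholded set and 918, 799 and 894 in the replicates. The eIF3m promoter was called in every replicate, at ranks from 2545 to 3654. The eIF3a summit ranked 2917, had no call in replicate 2 and lay 14 bp from the TSS of CG1074, nearer than the 56 bp to its own. Replicate 1 had calls at 7 eIF3 promoters, replicate 2 at 3 and replicate 3 at 5, the widest spread between replicates among the larger role groups.

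The eIF4 factors bind the mRNA cap and unwind the leader. The strongest promoter among them was that of eIF4EHP, a cap-binding repressor of translation, with rank 370 in the thresholded set and 461, 440 and 288 in the replicates. Its summit lay 203 bp upstream and nearer to the TSS of CG18428, at 173 bp. The helicase gene eIF4A had 2 promoter summits, of ranks 4440 and 8007, at different TSS of the gene. The stronger one ranked 5272 in replicate 1 and 3138 in replicate 3, with no call of replicate 2 within 100 bp. The weaker one ranked 5395 in replicate 1 and 6804 in replicate 2, and was no top call of replicate 3. The scaffold genes eIF4G1 (rank 7362) and eIF4G2 (rank 6730) and the cap-binding eIF4E1 (rank 6904) were weak, and each was missing from the top calls of 1 or more replicates. The count of 5 of 13 became 2 of 13 whichever replicate was left out, and eIF4EHP was kept each time. For this a summit had to be matched within 100 bp in both remaining replicates. The share of all protein-coding genes fell from 26.9% to 19.1, 22.3 and 19.4% without replicate 1, 2 and 3.

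Among the late-acting initiation genes, eIF5B, the GTPase of subunit joining, had a promoter summit of rank 1665 (2121, 1450 and 1522 in the replicates), and eIF5, which activates GTP hydrolysis by eIF2, had a pooled call of rank 9907 at its promoter. The eIF5B gene spans 32320 bp and held 5 more thresholded summits, all in introns, of ranks 1715, 3287, 3602, 6114 and 7673. Those of ranks 1715, 6114 and 7673 lay nearer to the TSS of sty, at 7922, 13772 and 12327 bp, than to that of eIF5B. The eIF4EHP gene, of 45884 bp, held 2 intronic summits, of ranks 2682 and 4305. Both lay nearer to the TSS of Syx1A, at 6604 and 684 bp, than to that of eIF4EHP. Intronic summits away from promoters were otherwise found at eIF1A alone.

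The same 5 of 8 elongation factor genes were called in every replicate: eEF1alpha1, which delivers charged tRNAs, eEF1beta and eEF1gamma of its exchange factor, the translocase eEF2, and eEF5, a hypusine-containing factor that helps elongation at difficult sequences. The eEF1gamma promoter ranked 284, 716 and 624 in the replicates. The eEF2 promoter ranked 1324, 2842 and 1421, and that of eEF1alpha1 1304, 1549 and 2095. Weaker, but within a narrow range, eEF1beta ranked 6248, 6040 and 5927. The remaining genes were eEF1delta (pooled rank 11967), eEF1alpha2 (pooled rank 12001) and eEFSec, the selenocysteine factor, which had no pooled call there.

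Cytoplasmic synthetase genes had promoter summits at 10 of 17 loci (58.8%), against 26.9% of all protein-coding genes. Over the replicates the share was 49.0% ± 6.79, against 26.5% ± 3.04 for all genes (SD, n = 3). A TSS of another protein-coding gene on the opposite strand lay within 500 bp at 13 of the 17. Among all genes with such a neighbour the shares were 51.0% in the thresholded set and 49.5% ± 6.40 over the replicates. The SerRS summit, 9 bp downstream of its TSS and 17 bp from that of CG17260, ranked 270 in the thresholded set and 208, 214 and 422 in the replicates. The ranks of AspRS were 1653, 623 and 1876, those of ThrRS 1584, 821 and 1406, and those of IleRS 2188, 1056 and 1418. For these 3 genes replicate 2 gave the highest place, although it had the fewest promoter calls over all 84 genes. AsnRS (2169, 2207 and 1907) and ValRS (3592, 3556 and 5962) were also called in every replicate.

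The other 4 cytoplasmic synthetase genes lacked a top call in 1 or more replicates. ArgRS (2324 in replicate 1 and 2383 in replicate 3) and MetRS (7686 and 5342) lacked it in replicate 2, and AlaRS (4960 in replicate 2 and 3467 in replicate 3) in replicate 1. GlyRS was a top call of replicate 1 alone (rank 7419), and its thresholded rank of 8017 was the last of the 35. The first gene outside the threshold was eIF3d1, with a pooled rank of 8337. Leaving out replicate 1, 2 or 3 gave 7, 8 or 6 of the 17 genes, against 19.1, 22.3 or 19.4% of all genes.

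Mitochondrial synthetase genes had promoter summits at 4 of 15 loci (26.7%, with 28.9% ± 3.85 over the replicates, SD, n = 3), close to the 26.9% and 26.5% ± 3.04 of all protein-coding genes. ArgRS-m alone was called in every replicate (2651, 3073 and 2880). LeuRS-m and PheRS-m had no top call in replicate 3, and CysRS-m had none in replicate 2. Leaving out replicate 1, 2 or 3 gave 1, 2 or 3 of the 15 genes, against 19.1, 22.3 or 19.4% of all genes. AspRS-m was the converse case, a top call in all replicates (5846, 5364 and 5362) with no pooled call within 500 bp. Such a site was found 8 times among the 5141 top summits of replicate 1 that both other replicates matched.

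Over the 35 genes, 22 had a top promoter call in all 3 replicates, 9 in 2 and 4 in 1. The thresholded set was itself drawn from the pool of these replicates, so this recurrence is not independent support. Replicate 1 lacked such a call at 3 of them, replicate 2 at 8 and replicate 3 at 6. Among all 30000 calls of each replicate, 29 of the 35 were called in every list, and the other 6 (eIF1A, eIF2beta, eIF3a, eIF4E1, ArgRS and MetRS) were each missing from replicate 2. Of the 49 genes without a thresholded promoter summit, 41 had no top call there in any replicate. Of the 39 promoter summits at the 35 genes, 23 were matched in all replicates (59.0%), close to the 61.3% of all promoter summits.

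Among paralogs, a thresholded promoter summit separated the members of the eEF1alpha pair and of the eIF4E family, and the pairs eIF3d, eIF3f, eIF3g, eIF4G and eIF4H were alike by that rule. Of the eEF1alpha pair, eEF1alpha1 ranked 1579 in the thresholded set and eEF1alpha2 12001 among the pooled calls. Of the cap-binding genes, eIF4EHP ranked 370 and eIF4E1 6904, while eIF4E3, eIF4E4, eIF4E5, eIF4E6 and eIF4E7 had no pooled call at the promoter. Both eIF4G genes were called, at 7362 and 6730. Among weaker calls, the eIF3d1 promoter had a pooled call and eIF3d2 none, and the same held for eIF4H1 (pooled rank 15133) and eIF4H2. The pairs eIF3f1 and eIF3f2 and eIF3g1 and eIF3g2 had no pooled call at any promoter, and eIF3f1 was a top call of replicate 1 (rank 5308).

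Of the 35 top promoter summits, 32 lay upstream of the nearest own TSS (91.4%), close to the 87.7% over all genes with a promoter summit, and the 3 downstream ones were those of SerRS, eIF4E1 and eIF3h. The median position was 91 bp upstream for the 35 genes and 130 bp upstream for all genes with a promoter summit. Within 100 bp of the TSS lay 19 of 35 (54.3%), against 34.2% over all such genes. The widest distances were those of ValRS (474 bp upstream, and 39 bp from the TSS of Kdm4B), GlyRS (315 bp upstream) and eIF1 (313 bp upstream).

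**Figure D3:**
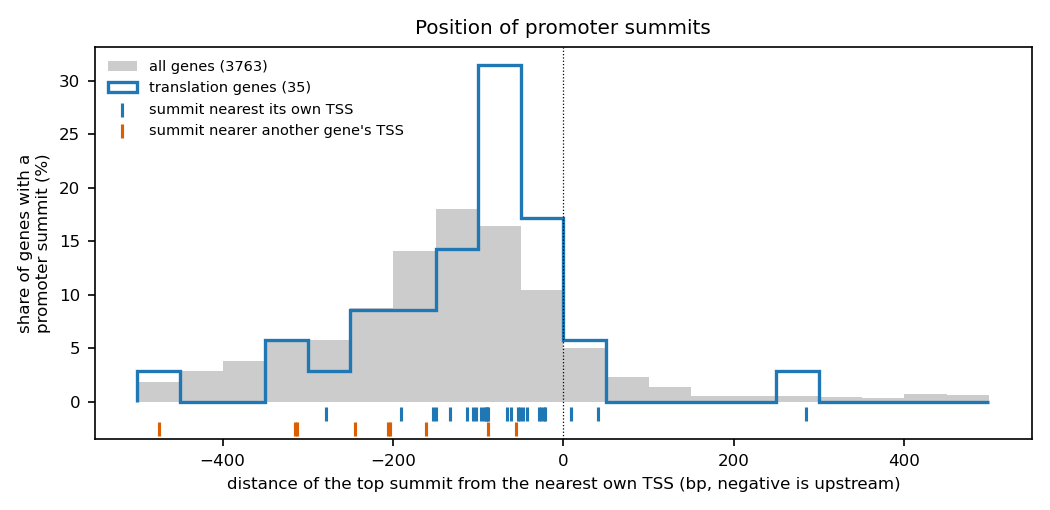
Distance of the top promoter summit from the nearest own TSS (bp, negative is upstream). The filled histogram shows all 3763 genes with a promoter summit and the outline the 35 translation genes, both as percent of genes, and ticks below mark single genes, coloured by whether another gene's TSS is nearer. Most of the 35 lie between 150 bp upstream and the TSS, and the 9 summits nearer to another gene lie between 56 and 474 bp upstream.

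Many of these promoters are shared with a neighbour. A TSS of another protein-coding gene on the opposite strand lay within 500 bp at 40 of the 84 genes (47.6%), against 27.8% of all genes, and at 13 of the 17 cytoplasmic synthetase genes. Of the 40 genes with such a neighbour, 19 had a promoter summit (47.5%), and the replicate mean was 42.5% ± 8.66, against 49.5% ± 6.40 for all genes with an opposite-strand neighbour (SD, n = 3). Of the 44 without, 16 had one (36.4%, Wilson interval 23.8 to 51.1%), with a replicate mean of 37.1% ± 5.25 against 17.7% ± 1.75. The replicate ranges of the 84 genes and of all genes overlapped among genes with an opposite-strand TSS nearby and did not overlap among those without. These differences had no test, since the study has a single group.

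**Figure D4:**
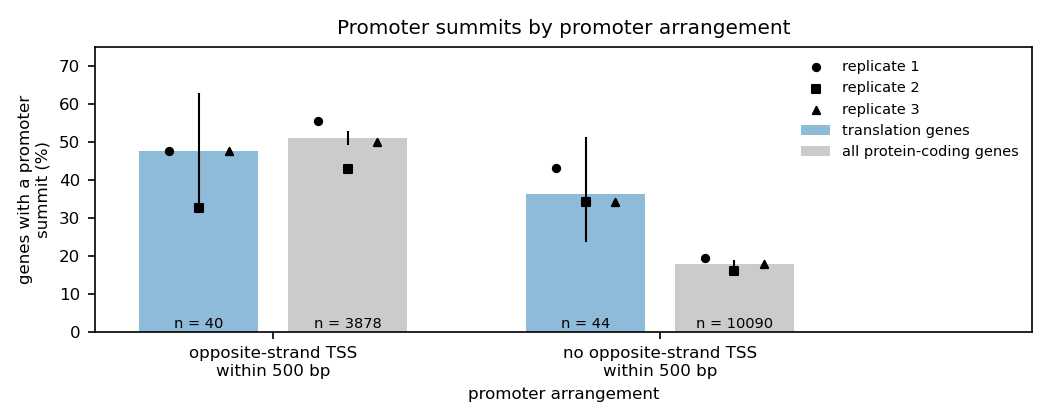
Share of genes with a promoter summit (percent) by whether an opposite-strand protein-coding TSS lies within 500 bp. Bars give the thresholded set with 95% Wilson intervals, points the 3 replicates, and n the number of genes. The points of translation genes and of all genes overlap on the left, and on the right the points of the translation genes lie above 30% while those of all genes lie under 20%.

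The TSS nearest to the top summit was the gene's own at 26 of the 35 promoters (74.3%), close to the 72.9% over all genes with one. The 9 nearer to another gene were ArgRS, AspRS, GlyRS, MetRS, ValRS, CysRS-m, eIF1, eIF3a and eIF4EHP. Counting each summit for the nearest gene alone left 27 of the 84 genes (32.1%, against 20.5% of all genes), since eIF1 kept its second summit. The cytoplasmic synthetase genes fell from 10 to 5 of 17 by that rule. For eIF4G2 the TSS of CG33111 lay at the same distance as its own, 66 bp.

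Counting summits anywhere in the gene or within 1 kb of it gave 43 of 84 genes (51.2%, Wilson interval 40.7 to 61.6%), against 38.1% of all genes, and with all pooled calls 55 of 84, against 62.3% of all. The 8 genes added lacked a promoter summit, and their summits were mostly at a neighbour's start. Besides the eIF2Bbeta and eIF2Bdelta summits, that of eIF3g1 (rank 848) lay 122 bp from the TSS of Smyd3, that of SerRS-m (rank 1532) 59 bp from Nagk, and that of GlnRS (rank 1867) 93 bp from CG11858. The eEF1alpha2 summit (rank 2778) lay 74 bp from CG1896 and that of eIF5 (rank 7135) 143 bp from ND-20. The HisRS summit (rank 5415) was exonic, 2168 bp from its own TSS and at the same distance from a TSS of Bx. Inside the gene span alone, 12 of 84 genes had a summit (14.3%), close to the 15.9% of all genes. Among genes already counted, eIF2beta had a summit of rank 183 at its 3′ side, 203 bp from Gcn5, and LeuRS-m one of rank 620, 722 bp from Dhc64C.

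Of the 10 genes on the X, ArgRS alone had a thresholded promoter summit, while 34 of the 74 autosomal genes had one. Replicates 1, 2 and 3 had a call at 1, 0 and 2 of the 10. The replicate means were 43.7% ± 6.09 for the autosomal genes of this set, 27.1% ± 2.22 for all X genes and 26.5% ± 3.27 for all autosomal genes (SD, n = 3). Pooled calls at the promoter were present at 7 of the 10 (70.0%), against 55.0% of all X genes. On the autosomes they were present at 58.1% of the genes of this set and 47.3% of all genes. Thresholded summits in the span plus 1 kb were present at 5 of the 10 (against 51.4% of the autosomal genes of this set and 41.4% of all X genes). With 10 genes the Wilson interval runs from 1.79 to 40.4% and includes the share of all X genes, 27.6%.

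Motifs were searched on both strands by exact letters. The promoter window held 300 bp, from 250 bp before to 50 bp after the 5′ end of the gene. It need not cover the other TSS of a gene, at which a promoter summit was also counted. In this window the DRE was present at 19 of the 84 promoters (22.6%), against 9.36% of all promoters. Promoter summits stood at 10 of these 19 genes and at 25 of the 65 without a DRE. Over all genes the shares were 42.8% with and 25.3% without. Within 50 bp of a summit, a shorter window, the DRE was present at 3 of 39 summits (7.69%, eIF1, eIF3a and eEF1gamma), against 3.58% of all promoter summits and 3.31% of all promoters over a window of the same length. At 8 genes with a promoter summit (eIF1A, eIF3c, eIF4A, eIF6, AlaRS, ArgRS, IleRS and PheRS-m) a DRE lay in the 300 bp promoter but in no summit window.

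The BEAF-32 core, CGATA outside a DRE, was present in 10 of 39 summit windows (25.6%), against 21.1% of all. Letters lying wholly within a DRE were left out of this count, so a core can adjoin a DRE, as at eEF1gamma. The M1BP motif GGTCACACT was present at 7 of the 84 promoters (8.33%), against 6.04% of all. None of the 7 had a thresholded promoter summit (0%, Wilson upper bound 35.4%), while 39.9% of all genes with this motif had one. The 7 were eIF2alpha, eIF3i, eIF3l, GlnRS, AsnRS-m, AspRS-m and ProRS-m, of which AspRS-m was a top promoter call in all replicates (5846, 5364 and 5362) and ProRS-m in replicate 3 (7728). At summits the motif was present in 1 of 39 windows (2.56%, ValRS), against 1.43% of all. The letters GATAA were present in 13 of 39 windows (33.3%), against 24.0% of all promoter summits and 27.3% of all promoters over the same length. With 100 bp to each side they were present at 46.2% of these summits and 42.3% of all. In the 300 bp promoters the shares were 53.6% of the 84 genes and 55.1% of all. CAGCTG was present in 1 of 39 windows (2.56%, ArgRS), against 4.80% of all, and GAGAGAG in 0 of 39, against 1.40% of all.

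The Runx consensus of the family to which lz belongs, searched as AACCACA with A or G allowed at the start and between the C letters, was present in 0 of the 39 summit windows (Wilson upper bound 8.97%) and in 2.74% of all promoter summit windows. In the 300 bp promoters it was present at 5 of the 84 genes (5.95%), against 11.4% of all promoters, and 2 of the 5 (eIF3a and eIF3h) had a promoter summit. A match, or its lack, describes these letters in these windows.

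Other translation genes, from a list of 37 symbols of which 35 matched the gene models, had promoter summits at 19 of 35 (54.3%), against 26.9% of all protein-coding genes. All 4 termination, rescue and recycling genes had one: the recycling ATPase pix (rank 1774), the release factors eRF1 (2728) and eRF3 (5705), and the ribosome rescue factor pelo (4441). The poly(A)-binding protein gene pAbp ranked 676 in the thresholded set and 649, 920 and 6298 in the replicates, and Rack1, of the small subunit, ranked 1462. Of the 4 genes of the eIF2 kinase response, crc, the ATF4 homolog, ranked 2817, PPP1R15 5631 and PEK 6742, and the kinase gene Gcn2 had none.

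Of the synthetase and related genes outside the symbol rule, GluProRS, the fused enzyme for glutamate and proline, ranked 667 in the thresholded set and 888, 475 and 790 in the replicates. The genes beta-PheRS (4340), Slimp (4852) and alpha-PheRS (6849) also had a promoter summit, and AIMP1, AIMP2 and AIMP3 of the synthetase complex had none. In the 4E-BP and Tor axis 3 of 7 had one, among them Lk6, the eIF4E kinase, whose promoter ranked 7416 and whose gene or 1 kb flank held the summit of rank 7. Thor, the fly 4E-BP, had none, although its promoter was a top call of replicate 1 (rank 6432) and replicate 3 (rank 7495). Mitochondrial factors had one at 2 of 8, mIF2 (6919) and mRF1 (7556), a share near the 26.9% of all genes.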

How the data were processed

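The data are ChIP-seq peak lists of 1 group with 3 biological replicates, each with its own material per the labels. The authors deposited narrowPeak lists of 30000 calls for each replicate and for the pooled replicates, and a thresholded set of 8048 summits, which was checked to equal the 8048 highest pooled calls by signal. The deposited signal value per peak was used only to rank summits within a list. Per the labels, the pooled list holds peaks and background, and the thresholded set was cut by IDR, a measure of reproducibility. Neither aligner, peak caller nor reproducibility level is given in the sources used here. Without counts in the lists the depth is unknown. The dm3 lists were not used.

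Gene models were those of Ensembl release 115 and sequence that of RefSeq Release 6, both on dm6, with 1-based coordinates. A summit counted for a gene within 500 bp of an own TSS, or within its span plus 1 kb. Each replicate was cut to its 8048 strongest calls, and summits within 100 bp matched. Shares are given with Wilson 95% intervals and as mean and SD over 3 replicates; with 1 group there was no contrast to test. The counting step alone was checked with summits planted within 500 bp of a TSS of 200 genes, all of which were found. That check says nothing on the peak calls themselves. The genes and lists were chosen with earlier results of these data known. Named with values were up to 4 genes of each role group with the highest promoter summit, those missing from a replicate, those with a summit in the span alone, and listed paralogs; others named appear as members of counts. Alternatives covered the TSS distance, which TSS counts, the peak set, the flank, the matching distance, the motif window and leaving out each replicate, meaning that a summit had to be matched in both others. The symbols Tor and mEFG2 of the list of other translation genes were not matched and are not analysed here. Tools were pandas 2.3.3 and numpy 2.4.6 for tables, scipy 1.17.1 for intervals and matplotlib 3.10.9 for plots, under Python 3.11.15.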

Additional observations from a re-analysis of the deposited data

How the results depend on the processing

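The 35 genes with a promoter summit became 21 in the stronger part of the thresholded set (ranks to 4024) and 23 to 26 on leaving out a replicate, 23 without replicate 1. Over all genes, 3763 became 2249 in that stronger part and 6769 with all pooled calls. Without replicate 1, 2 or 3 they became 2662, 3110 or 2712. The 43 genes with a summit in the span plus 1 kb became 12 with the gene span alone. Over all genes, 5328 became 2227 with the span alone, 8301 with a flank of 5 kb, 3469 in the stronger part and 8705 with all pooled calls. The share of summits with a DRE was 7.69%, then 20.5% with 100 bp to each side and 28.6% in the 300 bp promoters of the 35 genes with a summit. The BEAF-32 core went from 25.6% to 59.0% and 65.7%, both windows being wider. Over all promoter summits, 100 bp to each side gave 7.73% for the DRE and 36.8% for the BEAF-32 core. Over all promoters the 300 bp window gave 9.36% and 44.7%. The M1BP share was 2.56% at summits and 0% in the promoters of those 35 genes. Under each alternative to the promoter count the 84 genes kept a higher share than all genes, and with the gene span alone their share was lower (14.3% against 15.9%). A TSS distance of 250 bp lost eIF2beta, GlyRS and ValRS, and use of the 5′ end alone lost eEF1alpha1 and AspRS. No paired analysis was possible because the study has 1 group. Depth is unknown, so a missing call cannot be told apart from a weak one.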

Other observations

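By chromosome arm, promoter summits were present at 7 of 11 of these genes on 2L, 11 of 21 on 2R, 8 of 21 on 3L, 7 of 20 on 3R and 1 of 1 on chromosome 4. Over all protein-coding genes the share ranged from 24.7% on 2R to 28.6% on 3R among the large autosomal arms. Of the 8 sites called in all replicates without a pooled call within 500 bp, those nearest to Ski6, Coq7, Upf1 and AspRS-m lay within 100 bp of a TSS, as did the one nearest to Brca2. Top calls at mEFTu2 were present in replicate 2 (rank 7843) and replicate 3 (rank 6986), with no thresholded summit.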
